A study of Mus musculus with 7 samples.

Results

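The insulin-like growth factor (IGF) axis was described here through 10 genes in epicardial explants of mouse embryo hearts. They are the ligand genes Igf1 and Igf2, the receptor genes Igf1r and Igf2r, and 6 genes of secreted binding proteins, Igfbp2 to Igfbp7. The genes were chosen by name from the 22738 gene rows of each count table, and all 10 were present. RNA sequencing covered 4 wild type libraries and 3 libraries from Lmnb1-/- embryos, which lack the nuclear lamina protein lamin B1. All embryos were E12.5 and of a mixed background of C57BL/6, 129S4Sv/Jae and 129S6/SvEvTac, and no other agent was given. Ventricles lay on gelatin for 48 hours so that the outer cell layer of the heart could migrate out, then were taken off, and the remaining cells grew for 72 hours. The form of the null allele, the litters and any pooling of embryos are not stated in the labels, so p-values measure the spread between these libraries, which may be partly technical.

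IGF1 and IGF2 are small secreted proteins that promote growth and survival through the tyrosine kinase receptor encoded by Igf1r. The receptor encoded by Igf2r takes IGF2 up for degradation and also sorts lysosomal enzymes. The binding proteins hold the ligands outside the cell, and proteases such as pappalysin release them. In the embryonic heart the epicardium is known as a source of IGF2, which acts on the myocardium beneath it. Igf2 is imprinted and expressed from the paternal allele, while its neighbour H19 and the mouse Igf2r are expressed from the maternal allele.

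The 250 bases before the annotated starts of the 4 genes with the most negative fold changes are shown, since the results below turn on these genes. They come from RefSeq on GRCm38.p6, which held entries for 10 of the 10 genes, and are read 5′ to 3′ on the strand of the gene. Capitals mark each GC box (GGGCGG on either strand, the element bound by SP1 family factors). Igf2 has 4 listed starts, and the one nearest the 3′ end of the gene is shown, on the minus strand at chr7:142657497-142657746. Igfbp7 is on the minus strand at chr5:77408046-77408295, Igfbp3 on the minus strand at chr11:7213924-7214173 and Igfbp2, from the first of its 2 listed starts, on the plus strand at chr1:72824230-72824479.
Igf2: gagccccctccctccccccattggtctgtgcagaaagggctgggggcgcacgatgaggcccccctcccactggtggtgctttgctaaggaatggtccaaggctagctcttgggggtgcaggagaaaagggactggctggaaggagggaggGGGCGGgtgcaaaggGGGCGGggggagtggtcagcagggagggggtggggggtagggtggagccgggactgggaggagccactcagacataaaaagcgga
Igfbp7: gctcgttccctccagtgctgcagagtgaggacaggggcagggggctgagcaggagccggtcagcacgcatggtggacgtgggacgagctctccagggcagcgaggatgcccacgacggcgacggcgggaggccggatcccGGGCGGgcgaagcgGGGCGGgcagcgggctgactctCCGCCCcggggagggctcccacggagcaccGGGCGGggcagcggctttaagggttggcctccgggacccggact
Igfbp3: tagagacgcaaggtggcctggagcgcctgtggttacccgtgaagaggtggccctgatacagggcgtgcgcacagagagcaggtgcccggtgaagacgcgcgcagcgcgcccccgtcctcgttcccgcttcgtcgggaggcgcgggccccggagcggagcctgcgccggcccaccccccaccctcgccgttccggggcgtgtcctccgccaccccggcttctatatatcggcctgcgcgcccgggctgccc
Igfbp2: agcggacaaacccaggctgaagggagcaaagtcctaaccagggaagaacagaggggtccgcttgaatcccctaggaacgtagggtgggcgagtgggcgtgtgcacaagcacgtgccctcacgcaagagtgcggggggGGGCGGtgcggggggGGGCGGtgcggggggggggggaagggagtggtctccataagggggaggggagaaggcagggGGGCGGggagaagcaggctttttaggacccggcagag

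These windows held 2 GC boxes for Igf2, 4 for Igfbp7, 3 for Igfbp2 and none for Igfbp3. The other 3 Igf2 windows held 0, 0 and 1, and the other Igfbp2 window held 0. Among all 32851 windows of 250 bases in the same table, 32.7% held at least 1. The EGR1 and WT1 site GCGGGGGCG was searched on both strands because Wt1 marks the epicardium. It was in 2.57% of all windows and, among the 14 windows of the 10 genes, in 1, that of Igf2r, where it overlaps GC boxes. The sequence TATAAA was in 12.4% of all windows and in those of Igfbp4 and Igfbp6. The GC content of the 4 windows shown ran from 66.0% for Igf2 to 74.0% for Igfbp7. A match or its lack describes these letters only.

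Lmnb1 itself ran from 183.8 to 239.1 CPM in the wild type libraries and from 1.12 to 2.06 CPM in the Lmnb1-/- libraries, so each library fitted its label. CPM are counts scaled to a common library size after TMM adjustment. Library totals ran from 1024898 to 3066936 counts. Epicardial identity was checked with 12 markers, all of which were tested and detected. Their summed level was 2904 to 3902 CPM in wild type and 2615 to 3097 CPM in Lmnb1-/- libraries. Single markers went both ways with none past the threshold over all genes, and 5 of the 12 had an unadjusted p under 0.05 in edgeR, against 13.6% of all tested genes. On the log2 scale the fold changes of these 5, singled out once their values were known, were -0.73 for Upk3b, -0.49 for Bnc1, -0.36 for Aldh1a2, 0.37 for Krt18 and 0.87 for Krt8. The groups did not overlap for Bnc1, Krt8, Aldh1a2 and Wt1, 4 of the 12, against 13.3% of all tested genes. The part of these markers in the Igf2 values was not tested. Smooth muscle and mural markers summed to 11270 to 12890 CPM in wild type and 8620 to 9424 CPM in Lmnb1-/- libraries, without overlap. All 10 tested markers had negative fold changes, and 5 of them passed the threshold in edgeR, against 0.705% of all tested genes. Macrophage markers ranged from 75.4 to 316.7 CPM and from 40.5 to 600.2 CPM, and all 7 tested had positive fold changes with none past the threshold. Of 11 cardiomyocyte markers, 5 passed the count filter, while Myh7 and Actn2 were at 0 in every library in the counts used. The sum was 553.3 to 898.6 CPM in wild type and 547.9 to 709.1 CPM in Lmnb1-/- libraries. Over all libraries Myl7 ran from 273.1 to 610.2 CPM, Tnnt2 from 94.4 to 147.2 CPM and Tnni1 from 58.9 to 143.1 CPM. These genes were named once their values were known. Endothelial markers summed to 25.7 to 56.5 CPM and 35.4 to 51.6 CPM, with Cldn5 at 0. Fibroblast matrix markers summed to 8746 to 20950 CPM in wild type and 7550 to 9272 CPM in Lmnb1-/- libraries, and erythroid markers to 17.7 to 196.1 CPM and 21.2 to 231.7 CPM. In these bulk samples fewer cells of a type and less RNA per cell cannot be told apart.

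None of the 10 IGF axis genes passed the test of all libraries without a block, although every tested member had a lower fitted level without Lmnb1. Of the 10, 9 passed the count filter and 0 had an adjusted p under 0.05 in the quasi-likelihood test of edgeR, adjusted by Benjamini-Hochberg over 10775 genes, where 0.705% of all tested genes were called. DESeq2 and limma voom, which called 1.62% and 0.538% of all tested genes, also called 0 of the 9. A fit with groups of neighbouring library numbers as a block, described with Igf2 below, called 2 of the 9, Igf2 and Igfbp3. Its genotype difference rests on wild type replicates 1 and 4 alone. Without a block, leaving out wild type replicate 1 called 1 of the 9, Igfbp7, in a fit that called 2.63% of genes. At an unadjusted p under 0.05 there were 3 members, Igf2, Igfbp3 and Igfbp7, where 13.6% of all tested genes reached that level. All 9 log2 fold changes were below 0, with a median of -0.38, against a median of -0.02 and 5647 negative values among all 10775 tested genes. The value of Igfbp4 lay at 0 and changed sign with the scaling, being 0.00065 with RLE size factors and 0.05 with library totals. On simulated counts of the same libraries, the test recovered 26.5% of genes changed 1.5-fold and 66.0% of those changed 2-fold. The changed genes were drawn at random from genes above a low floor of mean CPM, so these rates are not specific to the members. In the simulated counts 149 genes were called, against 76 in the data. More calls loosen the adjusted threshold, so the rates may be too high for the real fit.

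**Figure D1:**
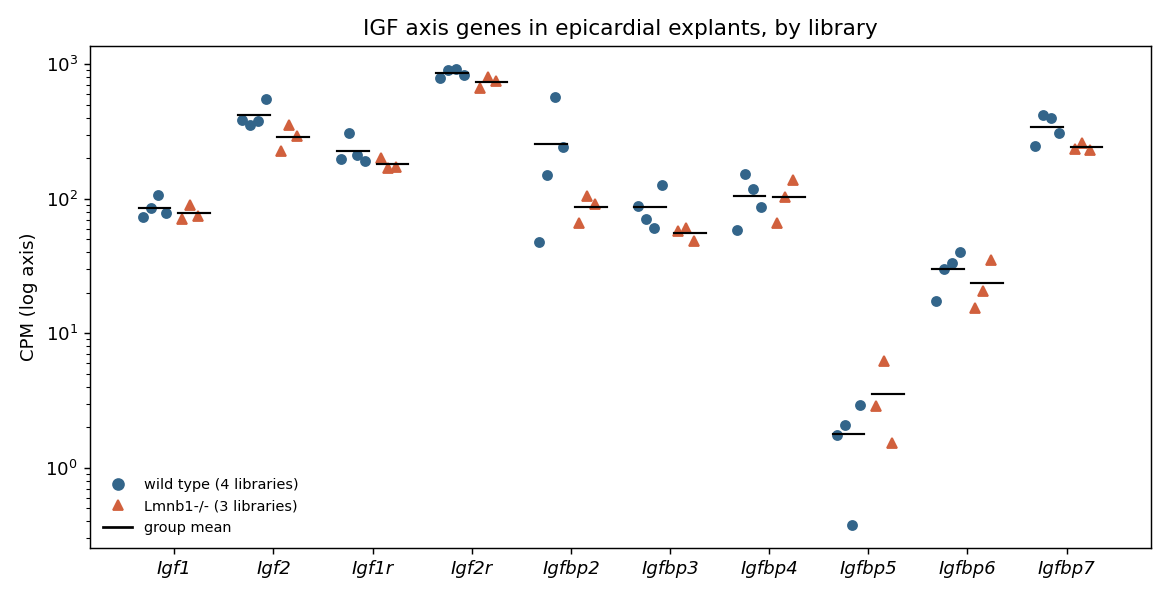
Levels of the 10 IGF axis genes in CPM on a log axis, with 1 point per library, circles for the 4 wild type and triangles for the 3 Lmnb1-/- libraries, and a black line at each group mean. Igf2r is highest by CPM, Igfbp5 lies near the limit of detection, and the wild type points of Igfbp2 spread from 47.8 to 575.0 CPM.

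**Figure D2:**
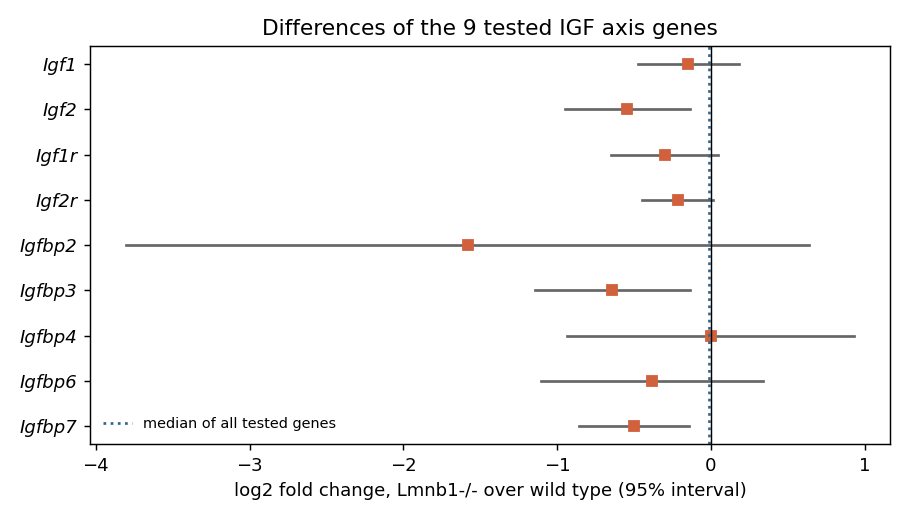
Log2 fold changes of the 9 tested members, Lmnb1-/- over wild type, with 95% intervals from edgeR's quasi-likelihood fit. All squares lie at or left of 0, and the intervals of Igf2, Igfbp3 and Igfbp7 do not reach 0 before adjustment over all genes.

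Among the ligands, Igf2 was the more abundant and had the larger difference. Igf2 stood at 384.5, 355.4, 380.7 and 555.8 CPM in wild type replicates 1 to 4 and at 225.1, 350.6 and 291.4 CPM in Lmnb1-/- replicates 1 to 3. All 3 Lmnb1-/- libraries lay below all 4 wild type libraries, but the nearest pair, wild type replicate 2 and Lmnb1-/- replicate 2, was not separable by counting error, with exact 95% Poisson intervals of 318.8 to 395.0 and 323.6 to 379.1 CPM. Scaled to plain library totals these 2 libraries changed places, at 335.6 and 349.8 CPM, and the groups overlapped. Igf2 was the 1 member of 9 whose TMM-scaled ranges lay apart, and 13.3% of all tested genes had such ranges. The group levels were 419.1 ± 92.0 CPM (SD, n = 4) and 289.0 ± 62.8 CPM (SD, n = 3), a log2 fold change of -0.54 (SE 0.18). As a ratio this was 0.686 of the wild type level with a 95% interval of 0.517 to 0.910, and the adjusted p in the edgeR fit was 0.240.

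The size of the Igf2 difference depended on the extreme library of each group. Without wild type replicate 4, the highest, the log2 fold change was -0.37 (adjusted p = 0.337 in edgeR), and without Lmnb1-/- replicate 1, the lowest, it was -0.39 (adjusted p = 0.485). Each library carries a number in its deposited name. Successive numbers at most 2 apart were put together, a cut chosen here, which gave 3 groups. One holds wild type replicate 1 (number 3) and Lmnb1-/- replicate 1 (4), another wild type replicates 2 (8) and 3 (9). The last holds wild type replicate 4 (15) with Lmnb1-/- replicates 2 (13) and 3 (16). What the numbers stand for is not given in the sources used here. Between libraries of the same number group, Igf2 was lower by -0.77 on the log2 CPM scale in the first and by -0.80 in the last. With number groups as a block, the edgeR fit gave -0.78 with an adjusted p of 0.00543, and Igf2 was then called, as was Igfbp3. The group of wild type replicates 2 and 3 holds no Lmnb1-/- library. The genotype difference of that fit therefore rests on wild type replicates 1 and 4, and replicate 4 is the highest library for Igf2 and Igfbp3. In that fit 0.863% of all tested genes were called. Deviations from the group means over all tested genes correlated within these number groups at 0.26 for the first and at 0.19 and 0.33 for wild type replicate 4 with Lmnb1-/- replicates 2 and 3, and from -0.45 to 0.16 for the other pairs of 1 wild type and 1 Lmnb1-/- library. Such deviations cancel within each genotype, so these correlations depend on each other and do not test the block. No such pair covers wild type replicates 2 and 3 as a group. With sex, read from Xist counts, as a covariate the log2 fold change was -0.67 (adjusted p = 0.208). Both female libraries are wild type, replicates 1 and 3, so sex and genotype are partly tied.

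Igf1 showed no detectable difference. Its levels were 72.6, 84.7, 106.6 and 78.4 CPM in wild type and 70.4, 89.2 and 74.0 CPM in Lmnb1-/- explants, and the groups overlapped. The log2 fold change was -0.15 (SE 0.15, adjusted p = 0.715), with a 95% interval of the ratio from 0.720 to 1.13. Igf1 is a known product of macrophages, whose summed markers in the same order were 127.0, 75.4, 78.7 and 316.7 CPM in wild type and 40.5, 253.5 and 600.2 CPM in Lmnb1-/- libraries. Their part in the Igf1 values was not tested. Per kilobase of exon, Igf2 exceeded Igf1 in every library, by 5.53 to 12.3 times.

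The Igf2 gene shares its locus with the maternally expressed H19 and with the antisense gene Igf2as. H19 was at 772.9, 605.4, 1061 and 2388 CPM in wild type and 775.3, 1458 and 1546 CPM in Lmnb1-/- explants, and the groups overlapped throughout. Its log2 fold change was 0.06 (SE 0.57, adjusted p = 0.983), which changed sign to -0.26 with sex as a covariate. The ratio of H19 to Igf2 counts was 2.01, 1.70, 2.79 and 4.30 in wild type and 3.44, 4.16 and 5.31 in Lmnb1-/- libraries, so those groups overlapped too. Wild type replicate 4 held the highest level of both genes. Igf2as had 1.28 to 2.29% as many counts as Igf2, only 7 to 26 per library. It ran from 5.27 to 10.96 CPM in wild type and from 4.11 to 5.15 CPM in Lmnb1-/- libraries. Its log2 fold change was -0.80 (SE 0.35, adjusted p = 0.345 in edgeR). The groups did not overlap, and 13.3% of all tested genes had such ranges. The library kit does not mark strand, so reads of Igf2 and Igf2as cannot be told apart where they overlap. Airn, antisense to Igf2r, had at most 3.10 CPM.

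Both receptor genes had slightly lower fitted levels that did not pass the test. Igf2r had the smallest relative spread of the members in wild type, an SD of 7.53% of the mean, at 785.9, 906.1, 926.0 and 832.8 CPM in wild type and 670.8, 804.9 and 752.3 CPM in Lmnb1-/- explants. The groups overlapped through wild type replicate 1 and Lmnb1-/- replicate 2. Its log2 fold change was -0.22 (SE 0.11, adjusted p = 0.396), and a ratio below 0.734 or above 1.01 lay outside the 95% interval. Igf1r was at 196.2, 309.9, 210.1 and 191.9 CPM in wild type and 201.9, 169.4 and 173.7 CPM in Lmnb1-/- explants. Only wild type replicate 2 stood clear of the rest, and it was also the library of lowest depth. The log2 fold change of Igf1r was -0.30 (SE 0.16, adjusted p = 0.439), and -0.12 without that library. Per kilobase of exon the ratio of Igf2r to Igf1r ran from 5.27 to 8.57 and overlapped between groups.

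Igfbp7 and Igfbp3 had the smallest p-values among the binding proteins. Igfbp7, the most abundant of them, encodes a protein of low IGF affinity that is found in vessel walls. It was at 247.0, 420.5, 399.5 and 310.4 CPM in wild type and 235.1, 260.8 and 231.2 CPM in Lmnb1-/- explants. Wild type replicate 1 lay among the Lmnb1-/- libraries and the other wild type libraries lay above them. The log2 fold change was -0.50 (SE 0.16, adjusted p = 0.214), and the spread in Lmnb1-/- libraries, 6.64% of the mean, was smaller than the 23.4% in wild type. Without wild type replicate 1 Igfbp7 passed, at -0.63 (adjusted p = 0.0206 in edgeR, in a fit that called 2.63% of genes), and with number groups as a block it was -0.22 (adjusted p = 0.493). The summed smooth muscle and mural markers were lower in the Lmnb1-/- libraries, as given above. In wild type replicate 1 they summed to 11270 CPM, above the Lmnb1-/- range of 8620 to 9424 CPM. Acta2 and Tagln, at 4855 and 5082 CPM in that replicate, made up most of the sum. The part of these markers in the Igfbp7 values was not tested.

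Igfbp3 encodes the main carrier of IGFs in adult blood. It was at 88.3, 70.3, 60.6 and 125.7 CPM in wild type and 57.2, 61.1 and 48.8 CPM in Lmnb1-/- explants. Wild type replicate 3 and Lmnb1-/- replicate 2 nearly coincided, and wild type replicate 4 was highest, as for Igf2. The log2 fold change was -0.64 (SE 0.23, adjusted p = 0.257), a ratio of 0.641 with a 95% interval of 0.452 to 0.909. It was -0.38 without wild type replicate 4 and -0.95 with number groups as a block, where it passed with an adjusted p of 0.0155 in edgeR. The block fit leaves wild type replicates 2 and 3 out of the genotype difference.

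Igfbp2, a binding protein gene of embryonic tissues, had the most negative fold change and the widest relative spread of the members in wild type. Its levels in wild type were 47.8, 150.8, 575.0 and 244.6 CPM, and in Lmnb1-/- explants 66.2, 104.3 and 91.0 CPM. Wild type replicate 1 was the lowest of all 7 libraries, whereas replicate 3 held more than any other library. The SD was 89.7% of the wild type mean and 22.2% of the Lmnb1-/- mean. The log2 fold change of -1.58 (SE 0.87, adjusted p = 0.504) had a 95% interval from -3.80 to 0.64. Leaving out wild type replicate 3 brought it to -0.78, and the comparison within number groups gave opposite signs, 0.46 in the first and -1.32 in the last.

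The other binding proteins overlapped widely between groups. Igfbp4, whose product is cleaved by pappalysin, was at 58.3, 153.9, 119.0 and 87.3 CPM in wild type and 66.6, 103.8 and 138.2 CPM in Lmnb1-/- explants (log2 fold change -0.002, SE 0.39, adjusted p = 0.999). Its 95% interval, from a ratio of 0.523 to 1.91, leaves room for a change of either sign. Igfbp6, whose product prefers IGF2 over IGF1, was at 17.4, 30.0, 33.5 and 40.1 CPM against 15.4, 20.8 and 34.9 CPM (log2 fold change -0.38, SE 0.33, adjusted p = 0.648). Leaving out wild type replicate 1 gave Igfbp6 a log2 fold change of -0.60, and leaving out wild type replicate 4 gave -0.19. It was -0.12 when Lmnb1-/- replicate 1 was left out and -0.76 when Lmnb1-/- replicate 3 was. Replicate 1 was the lowest library of its group for both genes. Igfbp5 had only 4, 2, 1 and 7 counts in wild type and 9, 11 and 3 in Lmnb1-/- libraries. It did not pass the count filter, and with no filter its log2 fold change was 0.98 (SE 0.63, adjusted p = 0.629).

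The makeup of the binding protein transcripts varied widely among the wild type libraries. The 6 genes summed to 460.6, 827.6, 1188 and 810.9 CPM in wild type and to 443.4, 557.0 and 545.7 CPM in Lmnb1-/- libraries. Replicate 1 of wild type fell among the Lmnb1-/- libraries, and the other wild type libraries were higher. Igfbp2 made up 10.4 to 48.4% of that sum in wild type and 14.9 to 18.7% in Lmnb1-/- libraries, and Igfbp7 33.6 to 53.6% and 42.4 to 53.0%. In wild type replicate 3 Igfbp2 took a larger share than Igfbp7, which was so in no other library.

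**Figure D3:**
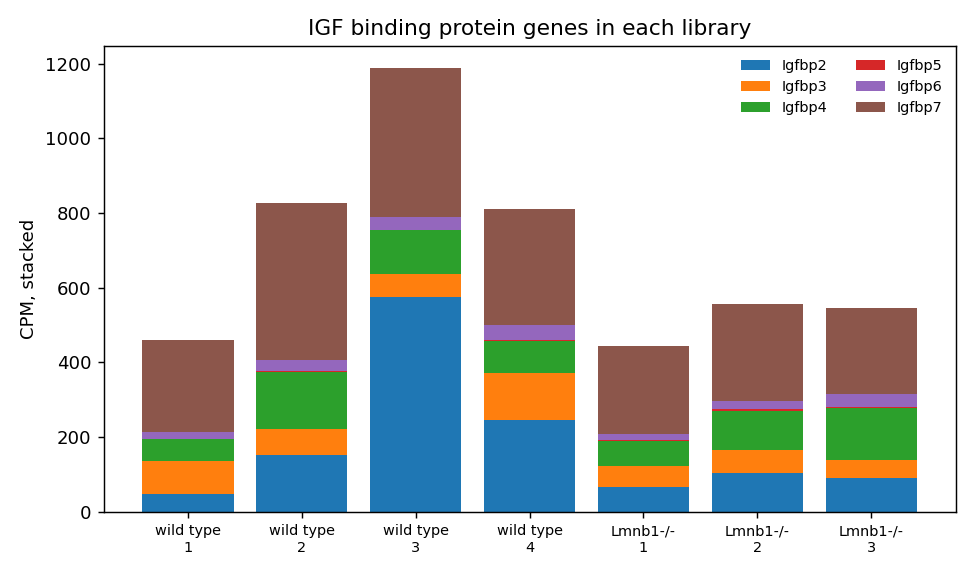
CPM of the 6 IGF binding protein genes stacked for each library, wild type replicates 1 to 4 and Lmnb1-/- replicates 1 to 3. The sum runs from 443.4 to 1188 CPM, and the Igfbp2 segment of wild type replicate 3 is the tallest at 575.0 CPM.

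Levels were put in order per kilobase of exon, as CPM divided by the length of all annotated exons of a gene. In wild type the order was Igfbp7 at 284.8 ± 66.6, Igfbp2 at 137.8 ± 123.6, Igf2r at 92.7 ± 6.98 and Igf2 at 73.2 ± 16.1 (SD, n = 4). Library ranges of neighbours overlapped among these 4. They lay apart between Igf2 and the next gene, Igfbp3, at 27.5 ± 9.17. Igfbp3, Igfbp6 (27.2 ± 8.57) and Igfbp4 (23.7 ± 9.32) each overlapped the next gene, down to Igf1r (13.5 ± 3.33). Igf1 at 8.64 ± 1.498 and Igfbp5 at 0.297 ± 0.178 followed, each lying apart from the gene before it. In Lmnb1-/- explants Igfbp7 remained first at 200.5 ± 13.3 (SD, n = 3), then came Igf2r at 79.8 ± 7.26, Igf2 at 50.5 ± 10.97 and Igfbp2 at 47.2 ± 10.5. Exons of Igf2 total 5723 bases over all its annotated transcripts together, so its level per kilobase depends on which of them are present, and the same holds for the other genes. Without division by length Igf2r and Igf2 came first, and 1 of 10 genes kept its place.

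The genes whose levels followed Igf2 most closely over the 7 libraries were Sort1 (r = 0.990), Phactr2 (r = 0.988) and Atxn7l3b (r = 0.964), out of 7896 genes with a mean log2 CPM of at least 4. Sort1 encodes the sorting receptor sortilin. It was at 57.9, 55.8, 58.8 and 70.0 CPM in wild type and 39.9, 52.7 and 48.3 CPM in Lmnb1-/- libraries. Wild type replicate 4 was the highest and Lmnb1-/- replicate 1 the lowest library for Sort1, as for Igf2. These correlations are the best of many over 7 libraries of 2 groups and are a description only.

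Among the members and the other pathway lists, the gene closest to the threshold was a regulator of the binding proteins. Pappa encodes pappalysin, the protease that cleaves IGFBP4, and was at 291.8, 448.4, 286.6 and 376.2 CPM in wild type and 247.9, 232.8 and 255.4 CPM in Lmnb1-/- explants. The groups did not overlap. Its log2 fold change was -0.51 (SE 0.15), with an adjusted p of 0.149 in edgeR's quasi-likelihood test. The call of Pappa changed with the setting, and it passed in 3 of the 18 alternatives, all of them edgeR fits. The fit adjusted for sex gave -0.74 (adjusted p = 0.0311) and called 0.353% of genes. Male libraries alone gave -0.74 (0.0184, 0.895% called), and dropping the count filter gave -0.50 (0.0461, 1.07% called). Every Lmnb1-/- library is male, so the sex-adjusted and male-only differences both rest on wild type replicates 2 and 4. Those are the wild type libraries with the most Pappa. Leaving out wild type replicate 2 gave -0.37 (adjusted p = 0.242 in edgeR), and leaving out Lmnb1-/- replicate 2 gave -0.47 (0.436). Of the 10 listed regulators 6 were tested and 0 passed, with a median log2 fold change of -0.17. The metalloprotease genes Adam12 and Adam9 had -0.32 and 0.14, and Stc2, whose product inhibits pappalysin, 0.16, and the signs of Adam12 and Stc2 turned to 0.08 and -0.17 with sex as a covariate.

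Genes related to the ligands, receptors and Igf2 mRNA binding showed little difference. The insulin receptor gene Insr had a log2 fold change of 0.02 (adjusted p = 0.980), and its sign turned with sex as a covariate. Igf2bp1, Igf2bp2 and Igf2bp3, which encode proteins that bind Igf2 mRNA, had 0.09, 0.01 and 0.31, and 0 of the 4 tested genes of that list passed. Insulin genes Ins1 and Ins2 and the liver binding protein gene Igfbp1 had 0 counts in all 7 libraries, which allows a level of up to 0.965 to 3.10 CPM, depending on the library.

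Downstream of the receptors, 0 of 28 tested genes of the adaptor and PI3K-AKT-mTOR list passed. Their median log2 fold change was -0.13, and 24 of them were below 0. Grb10, an imprinted adaptor that restrains insulin and IGF receptors, was the most abundant of the named genes at 1909 ± 134.7 CPM (SD, n = 4, wild type) and 1631 ± 94.1 CPM (SD, n = 3, Lmnb1-/-), with a log2 fold change of -0.23 (adjusted p = 0.348). Pdpk1 (-0.27), Mtor (-0.28) and Gsk3b (-0.27), which encode kinases of this chain, had adjusted p-values of 0.307, 0.347 and 0.380. In the RAS-ERK list 0 of 11 passed, with a median of -0.04. Hras, listed under its older symbol Hras1, had a log2 fold change of 0.32 (adjusted p = 0.264), Braf -0.38 (0.326) and Sos1 -0.21 (0.626).

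The lists of factors above and below the axis also held no called gene. Among imprinting and upstream factors 0 of 9 tested genes passed, with a median of -0.09. Plagl1, an imprinted zinc finger gene, had a log2 fold change of -0.53 (adjusted p = 0.498), Hmga2, an embryonic chromatin protein gene, 0.36 (0.721), the DNA methyltransferase gene Dnmt3a -0.30 (0.366) and Zfp57, which protects imprints, 0.18 (0.613). Leaving out single libraries moved Hmga2 from 0.05 without Lmnb1-/- replicate 1 to 0.68 without wild type replicate 1, with 0.19 without wild type replicate 4, and Plagl1 from -0.33 without wild type replicate 2 to -0.85 without Lmnb1-/- replicate 3. Among genes that FOXO factors induce when IGF signalling is low, 0 of 9 passed, with 4 positive and 5 negative values and a median of -0.10. Bcl2l11, encoding the cell death protein BIM, had 0.65 (0.385), Pik3ip1 -1.01 (0.412), Pink1 -0.57 (0.439) and Sesn3 -0.52 (0.619). Over all 83 listed genes, 67 were tested and 0 passed in edgeR, and DESeq2 and limma voom also called 0. Of the 67, 7 reached an unadjusted p under 0.05 in edgeR, where 13.6% of all tested genes reached that level.

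**Figure D4:**
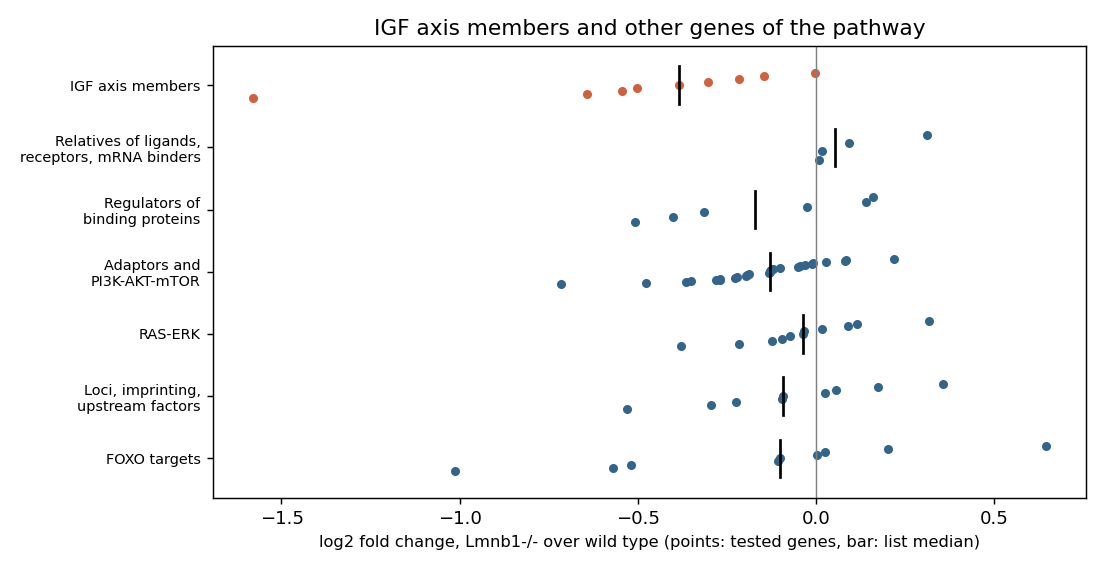
Log2 fold changes, Lmnb1-/- over wild type, of the tested genes of each list, with 1 point per gene and a bar at the list median. The median is -0.38 for the 9 IGF axis members and between -0.17 and 0.05 for the 6 other lists.

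**Figure D5:**
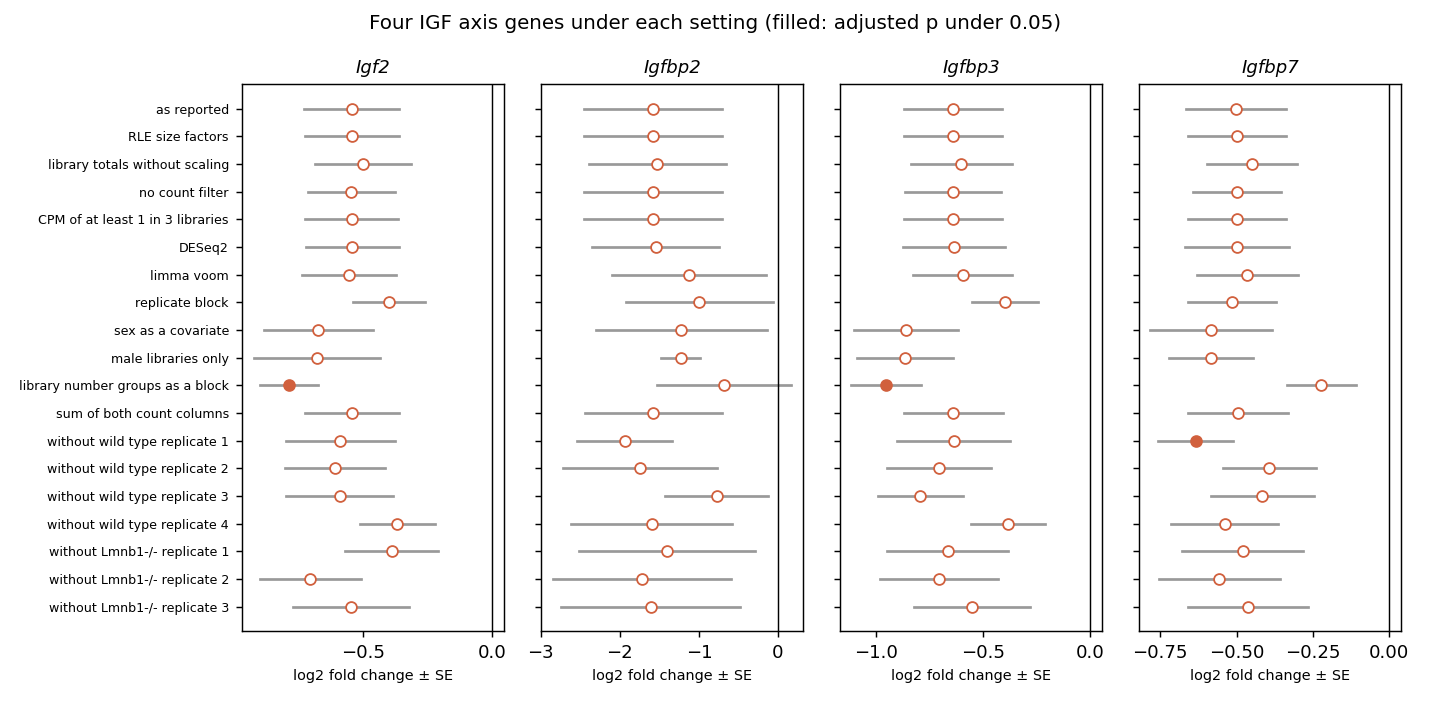
Log2 fold changes of Igf2, Igfbp2, Igfbp3 and Igfbp7 with their standard errors under the reported setting and 18 alternatives, filled where the adjusted p was under 0.05. All values lie below 0, and filled points appear for Igf2 and Igfbp3 with number groups as a block and for Igfbp7 without wild type replicate 1.

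Across the 18 alternatives the log2 fold change ranged from -0.78 to -0.37 for Igf2, from -0.95 to -0.38 for Igfbp3, from -0.63 to -0.22 for Igfbp7 and from -1.94 to -0.68 for Igfbp2. Each stayed below 0 in every setting, and Igfbp2 passed in none of them, with adjusted p-values from 0.0790 to 0.860 over edgeR, DESeq2 and limma voom fits.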

How the data were processed

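The authors deposited 1 table per library, in which each gene row has 2 count columns that carry no heading, as whole numbers without normalization. TopHat, edgeR and the mm9 build appear in the submitters' processing notes. How reads were counted, and on which annotation, is not stated, and the kit named in the labels does not mark strand. The first count column was used. The second held 16.6 to 19.6% of all counts but at most 0.540% for any IGF axis gene. For some other named genes it held more, with 54.0% for Krt8, 36.5% for Adam12 and 30.3% for Hmga2, and these counts are not in the values given. The 949 rows with repeated names held 0.0831% of counts and were kept apart.

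Genes were filtered with filterByExpr and scaled by TMM, and the groups were compared in R 4.3.3 by the quasi-likelihood test of edgeR 4.0.16 (limma 3.58.1), using robust dispersion, Benjamini-Hochberg adjustment and a threshold of 0.05. Standard errors are |log2 fold change| over the root of F, and 95% intervals use the fit's degrees of freedom. Poisson intervals and limits from a count of 0 (3 counts) cover counting error only. Exon lengths came from a GRCm38 annotation. Members and lists were chosen with earlier results of these data known. The text names all members, Lmnb1, H19, Grb10, every called gene of a pathway list and up to 4 others of smallest p (1 gene that this rule names is not reported here), and the 3 genes most correlated with Igf2. Igf2as, Airn, Ins1, Ins2 and Igfbp1 were added after their values were seen. Alternatives were other scalings and filters, DESeq2 1.42.0, limma voom, blocks, sex, both columns and leaving out each library. The procedure was tested on simulated data.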

Additional observations from a re-analysis of the deposited data

Results flagged for a closer look

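In 4 of 34 genes named in the text, 1 wild type library stood apart from the other three by Dixon's criterion on the gap to the nearest library divided by the range. Chance gives this in about 5% of groups. The Igf2 level of wild type replicate 4, 555.8 CPM, had a gap of 0.855 of the range. The Igf1r level of wild type replicate 2, 309.9 CPM, had 0.846, and the Bcl2l11 level of the same library, 14.5 CPM, had 0.837. The Braf level of wild type replicate 1, 62.2 CPM, lay below the rest with 0.932. Braf passed when that library was left out, with a log2 fold change of -0.52 and an adjusted p of 0.0436 in edgeR.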

How the results depend on the processing

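Of the members' values under alternatives, 150 kept direction and side of the threshold, 9 changed sign and 3 passed. The number of all genes called, 76, was 180 with no count filter, 175 with DESeq2, 38 with sex as a covariate and 44 with both count columns summed, and ran from 3 to 279 on leaving out single libraries. With library totals 73 genes passed, 47 higher and 26 lower, against 39 and 37. Called IGF axis members numbered 0, and 2 with number groups as a block (Igf2 and Igfbp3), and 0 to 1 on leaving out libraries (Igfbp7 without wild type replicate 1). Other pathway genes called were 0, but 1 (Pappa) with no count filter, with sex as a covariate and within male libraries, and 0 to 1 on leaving out libraries. Signs changed for these genes. Igfbp4 was 0.00065 with RLE, 0.054 with library totals, 0.024 with voom, 0.36 with number groups as a block and 0.00047 with both columns. H19 was -0.26 with sex as a covariate, -0.26 within male libraries and -0.39 with number groups as a block. With sex as a covariate and within male libraries, Igf2bp1 was -0.0088 and -0.0086, Insr -0.032 and -0.034, Adam12 0.076 and 0.074, and Stc2 -0.17 and -0.17. Leaving out single libraries gave -0.27 to 0.25 for Igfbp4, -0.16 to 0.64 for H19, -0.028 to 0.16 for Igf2bp1, -0.097 to 0.11 for Insr and -0.073 to 0.058 for Igf2bp2. Igf1 was 0.011 with number groups as a block. The level order had 1 of 10 genes in place without division by length. Deviations of libraries with the same replicate number correlated at 0.26, -0.16 and -0.09, of mixed sign. The labels do not call them pairs, so the main fit had no replicate block. The 0.26 belongs to replicate 1 of both groups, which is also a pair of 1 number group. The other pairs within a number group correlated at 0.19 and 0.33. These values cannot decide between the 2 groupings. With a replicate block 77 genes passed, 35 of them among the 76, with 0 members, no named gene changed its call, and Igf2bp2 was -0.023. The causes of these shifts were not tested. Depth limits Igfbp5.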
